A study of Mus musculus with 6 samples.

Results

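Chromatin accessibility was examined at 8 chemokine ligand genes, Ccl1, Ccl3, Ccl4, Ccl5, Ccl17, Ccl20, Ccl22 and Xcl1, in T helper cells of 3 subsets. The genes were chosen by name, with earlier results of these data known. All peaks that ATAC-seq (a transposase assay that marks open chromatin) gave within each gene body or 20000 bp on either side were taken from 6 peak lists. Overlapping or adjoining peaks were merged across the 6 lists, which gave 236017 regions, and 34 of these lay at least partly in the windows. A region was called in a library that had a peak in it. Peak strength was given as the percentile of the peak's fold enrichment within its own list (0 weakest, 100 strongest), because the lists differed in length and scale.

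Naive CD4+CD62L+ T cells of wild-type C57BL6/J mice, with spleen as the labelled tissue, were activated with anti-CD3 and anti-CD28 and cultured under 3 sets of conditions up to day 5. Th9 cells received IL-4, IL-2, TGF-β1 and anti-IFNγ, and Th2 cells the same without TGF-β1. Th17 cells received TGF-β1, IL-6, IL-23 and IL-1β with antibodies to IFNγ, IL-4 and IL-2. Each subset had 2 libraries, labelled replicates 1 and 3, and the labels do not say whether these came from separate mice or cultures, so the p-values here measure only the spread between these libraries.

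Chemokines are small secreted proteins that direct the migration of cells carrying their G protein-coupled receptors. Activated T cells are both targets and sources of them. Ligands of CCR4 and CCR8 are linked to type 2 responses, CCL3, CCL4 and CCL5 to type 1 and cytotoxic responses, and the CCR6 ligand CCL20 to Th17 cells, which themselves carry CCR6. Expression was not measured in these files, so the values below describe open chromatin near the genes, not their transcripts.

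The lists held 100317 to 142213 peaks per library and no read counts, so sequencing depth is not known from them. The lowest fold enrichment listed was 2.11 in Th9 replicate 1 and 1.71 to 1.83 in the other 5 libraries, so a weak peak could be listed in those 5 and missed in Th9 replicate 1, and the absence of a peak does not show closed chromatin. Of 5 T cell genes, Cd3e, Lck and Cd28 carried a promoter peak in all 6 libraries, Cd4 in 4 (not in replicate 1 of Th9 or Th17) and Trac in 2 (Th9 replicate 3 and Th2 replicate 1). The B cell markers Ms4a1 and Cd79a had no promoter peak in any library. Among 6 myeloid and dendritic cell markers, Csf1r, Itgam and Lyz2 had none, Itgax had a promoter peak only in the Th2 libraries (percentiles 55.1 and 71.4), Adgre1 in the Th9 and Th2 libraries, and Cd68 in 4 libraries. The promoters of Il9 and Il4 were called in the Th9 and Th2 libraries and not in Th17, that of Il13 in the Th2 libraries, and that of Il17f in the Th17 libraries. In such bulk cultures fewer cells with an open site and a less open site in each cell cannot be told apart.

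Across the 8 windows, a peak in every library was the most frequent complete pattern, followed by peaks in Th9 alone. In all, 11 of the 34 (32.4%) carried a peak in each of the 6 libraries, against 21.4% of all regions. A further 4 regions (11.8%) were called in both Th9 libraries and in no other, against 1.31% of all regions, and they lay near Ccl17, Ccl22, Ccl20 and Ccl1. For the Ccl20 region only the Th9 replicate 1 peak reached into the window, and the replicate 3 peak lay outside it. The Th2-only pattern was seen at 1 region near Ccl1, against 2.87% of all regions, and the Th17-only pattern at 1 region near Ccl20, against 1.70%. No region had a peak in all 4 libraries of Th9 and Th2 without one in Th17, a pattern of 2.0% of all regions. The other 17 regions were called in an incomplete set of libraries. Median width was 1006 bp and median percentile 73.2 for those 11 regions, beside 1425 bp and 76.4 for all such regions, and the 7 called in 1 library 286 bp and 20.4, beside 263 bp and 19.9. Among peaks of at least 4-fold enrichment, 9 regions were left and none of them had the Th9-only pattern.

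**Figure D1:**
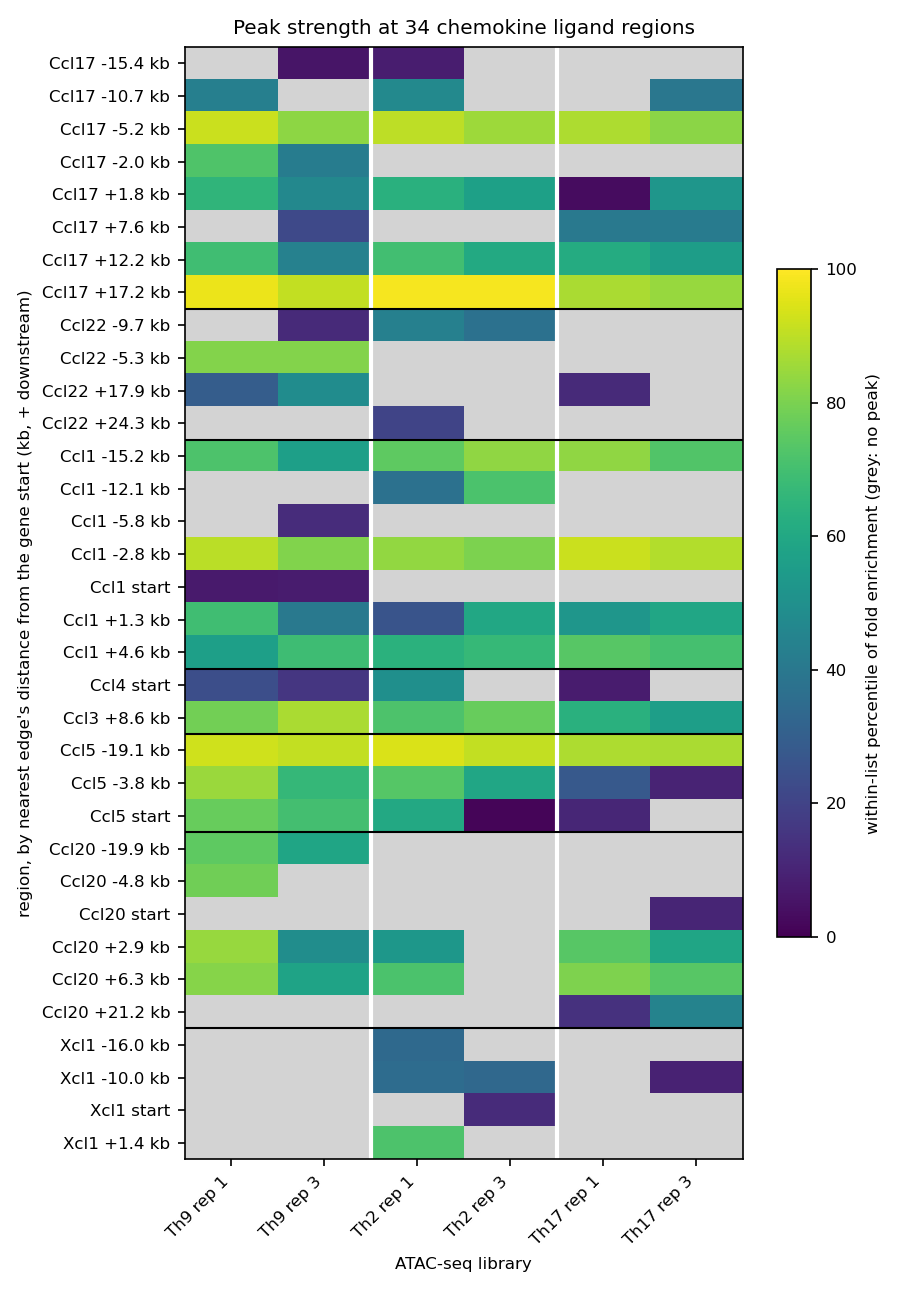
Peak strength at the 34 regions (rows, named by gene and by the distance of their nearest edge from its start in kb, positive downstream) in the 6 ATAC-seq libraries (columns). Colour gives the within-list percentile of fold enrichment and grey marks a library with no peak. The region 17218 bp downstream of the Ccl17 start is the brightest row in Th2 (98.6 and 98.5), the Ccl22 region 5308 bp upstream is coloured only in Th9, and the Xcl1 rows are grey in both Th9 libraries.

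CCL17 and CCL22 are the ligands of CCR4, a receptor of Th2 and regulatory T cells, and their genes are neighbours on chromosome 8. Ccl17 (chr8:94810453-94812036, plus strand, ENSMUSG00000031780.2) had 8 regions in its window, the most of the 8 genes, of which 4 were called in all 6 libraries. Ccl22 (chr8:94745590-94751699, plus strand, ENSMUSG00000031779.3) had 4 regions, none of them called in all libraries. Neither gene had a promoter peak in any library, where the promoter was taken as 1000 bp before to 100 bp after an annotated start. All peaks called in these windows thus lay outside the promoters.

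Sequences are shown for the elements that differed between subsets at this locus and for the strongest shared element beside them, 300 bases each from the stretch that all calling libraries had in common, on the plus strand of GRCm38.p6 (mm10). Capitals mark matches, on either strand, to TGANTCA of AP-1, to TTCNNNGAA of the STAT factors, to AGATAA of the GATA factors, and to the NF-kB motif.
Ccl22 upstream element, Th9 only, chr8:94739811-94740110: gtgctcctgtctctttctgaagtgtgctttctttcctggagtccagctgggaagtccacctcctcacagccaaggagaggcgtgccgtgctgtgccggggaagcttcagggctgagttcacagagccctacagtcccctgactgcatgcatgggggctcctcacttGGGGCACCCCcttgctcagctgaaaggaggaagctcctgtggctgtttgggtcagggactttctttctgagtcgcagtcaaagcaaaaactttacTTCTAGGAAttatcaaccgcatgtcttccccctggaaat
Ccl17 upstream element, Th9 only, chr8:94807613-94807912: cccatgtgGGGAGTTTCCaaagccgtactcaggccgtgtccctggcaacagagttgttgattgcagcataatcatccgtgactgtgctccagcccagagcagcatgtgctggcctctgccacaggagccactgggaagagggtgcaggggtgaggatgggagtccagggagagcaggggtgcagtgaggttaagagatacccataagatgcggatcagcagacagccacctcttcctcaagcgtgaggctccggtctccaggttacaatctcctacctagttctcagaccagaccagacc
Ccl17 upstream element, all libraries, chr8:94802337-94802636: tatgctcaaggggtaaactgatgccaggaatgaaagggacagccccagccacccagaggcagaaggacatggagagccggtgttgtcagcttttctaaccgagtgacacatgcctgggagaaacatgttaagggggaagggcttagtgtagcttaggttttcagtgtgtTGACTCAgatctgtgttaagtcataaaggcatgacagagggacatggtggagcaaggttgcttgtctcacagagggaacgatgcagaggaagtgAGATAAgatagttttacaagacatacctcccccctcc
Ccl17 downstream element, all libraries, chr8:94827997-94828296: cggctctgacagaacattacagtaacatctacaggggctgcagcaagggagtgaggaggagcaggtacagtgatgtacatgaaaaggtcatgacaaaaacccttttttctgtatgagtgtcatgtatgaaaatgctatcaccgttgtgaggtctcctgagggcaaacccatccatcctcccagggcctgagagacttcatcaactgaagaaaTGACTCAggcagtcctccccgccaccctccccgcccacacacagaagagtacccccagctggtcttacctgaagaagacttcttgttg
The Th9-only pair held an NF-kB match each, and the Ccl22 element a STAT match too. The printed elements open in all libraries held an AP-1 match each, with a GATA match in the upstream one. The other Ccl17 regions called in all libraries, 1784 and 12238 bp downstream, held no AP-1 match in their shared stretches. Among Th9-only regions elsewhere, that near Ccl20 held an AP-1 and no NF-kB match, and that at the Ccl1 promoter held neither.

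The region 5308 bp upstream of Ccl22 (chr8:94739689-94740282, intergenic, 594 bp) was called only in Th9, at percentile 81.5 in replicate 1 and 81.3 in replicate 3, or 3.84-fold and 4.10-fold enrichment. Of the 3095 regions with the Th9-only pattern, whose median strength was percentile 29.5, only 38 (1.23%) were as strong. A second Ccl22 region, 9690 bp upstream, had peaks at percentiles 43.5 and 37.4 in Th2, 11.7 in Th9 replicate 3 and none in Th9 replicate 1 or Th17. Its fold enrichment was 2.14 and 2.12 in Th2 and 1.92 in Th9 replicate 3. The Th2 values were barely above the lowest listed in Th9 replicate 1 (2.11). The region 17913 bp downstream of the start was called at 29.5 and 48.5 in Th9 and at 11.8 in Th17 replicate 1, and that at 24349 bp only in Th2 replicate 1 (20.4). Thus the strong Ccl22 element separated Th9 from Th2 as well as from Th17, while the weaker ones did so incompletely.

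The region 17218 bp downstream of the Ccl17 start (chr8:94827671-94828537, 867 bp), which overlaps an exon of the neighbouring gene Ciapin1, was the strongest of all 34 by mean percentile. Its signal cannot be given to Ccl17 alone because of that exon. Its percentiles were 96.9 and 90.7 (Th9), 98.6 and 98.5 (Th2), and 87.4 and 84.7 (Th17). Fold enrichment was 9.50 and 6.76 (Th9), 9.76 and 12.2 (Th2), and 4.52 and 3.97 (Th17). The libraries were thus ordered Th2 above Th9 above Th17, with no overlap between subsets. It was 1.30 ± 0.19 (SE, n = 2 and 2) higher on the log2 scale in Th2 than in Th17, or 2.46-fold, with a limma adjusted p of 4.4e-04, and this call held under all 10 alternatives. It was 0.68 ± 0.19 (1.61-fold) higher in Th9 than in Th17 at adjusted p = 0.0391, a call lost without Th9 replicate 1 (0.44, adjusted p = 0.259) without Th17 replicate 1 (0.66, adjusted p = 0.217), without Th17 replicate 3 (0.69, adjusted p = 0.218) and on the percentile scale. Between Th9 and Th2 the difference of -0.61 ± 0.19 did not pass (adjusted p = 0.0858), and it was -0.87 (adjusted p = 0.0518) without Th9 replicate 1, -0.35 (adjusted p = 0.417) without Th9 replicate 3 and -0.39 (adjusted p = 0.349) with median centring.

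The other Ccl17 regions showed where the subsets were alike and where Th9 stood apart. The widest, 5171 bp upstream (chr8:94801721-94805282, 3562 bp), lay at percentiles 91.9 and 82.9 (Th9), 90.1 and 85.5 (Th2), and 87.9 and 82.7 (Th17), and the subsets overlapped. Its fitted differences on the log2 scale were 0.07 ± 0.19 between Th9 and Th2, 0.14 ± 0.19 between Th9 and Th17 and 0.07 ± 0.19 between Th2 and Th17. Nearer the gene, the region 1953 bp upstream (chr8:94807195-94808500, intergenic, 1306 bp) was called only in Th9, at 72.3 and 42.0, and 13.4% of Th9-only regions were as strong. The region 1784 bp downstream of the start lay at 65.6 and 46.7 (Th9), 63.6 and 56.9 (Th2), and 3.46 and 52.6 (Th17), so that its Th17 libraries were far apart. The region 12238 bp downstream, over an exon of Ciapin1, ranged from 44.0 to 69.8 with overlap of all subsets. A weak region 7619 bp downstream lay at 40.4 and 41.5 in Th17 and 22.1 in Th9 replicate 3, with no peak in Th2. Its fold enrichment was close in these libraries, 2.06 and 2.06 in Th17 and 2.01 in Th9 replicate 3. All were below the lowest listed in Th9 replicate 1 (2.11). The 2 left, 15443 and 10668 bp upstream, were called in 2 and 3 libraries at percentiles of at most 47.1, with no subset complete.

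**Figure D2:**
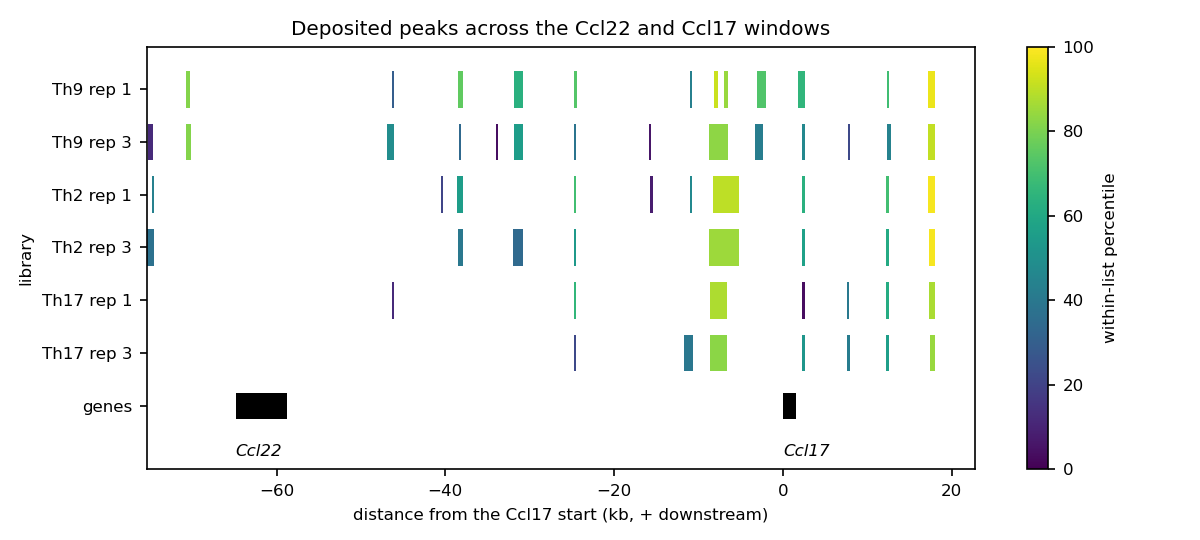
Deposited peaks across the Ccl22 and Ccl17 windows in each library, to scale, against distance from the Ccl17 start in kb (positive downstream). Bars are peaks coloured by within-list percentile and black boxes are the gene bodies. The Th9-only peaks lie just left of each gene, the peak 17218 bp downstream is present in all 6 libraries, and some peaks in the middle belong to neither window.

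CCL17 and CCL22 are also products of dendritic cells and macrophages. The number of the 6 myeloid and dendritic cell markers with a promoter peak was 1 and 2 (Th9), 2 and 3 (Th2), and 1 and 1 (Th17), and the part of other cells in the Ccl17 and Ccl22 peaks was not tested. The promoter of the receptor gene Ccr4 was called in all 6 libraries at percentiles 79.1 to 86.4.

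CCL1 is the ligand of CCR8, a receptor of Th2 and regulatory T cells. Ccl1 (chr11:82176657-82179812, minus strand, ENSMUSG00000020702.13) had 7 regions, 4 of them called in all libraries. The strongest lay 2792 bp upstream (chr11:82182604-82184535, 1932 bp), at percentiles 89.6 and 81.2 (Th9), 83.8 and 80.4 (Th2), and 91.8 and 88.4 (Th17). Th17 libraries were above Th2 libraries here, with a Th2 minus Th17 difference of -0.60 ± 0.18 on the log2 scale, which did not pass (limma adjusted p = 0.0551) but did with a replicate block (0.0434), with the length-weighted mean fold (0.0498) and without Th9 replicate 3 (0.0490). Of the other shared regions, that at 1309 bp downstream, over an exon of Ccl1, ranged from 25.9 to 69.5 with overlap of all subsets. At 4554 bp downstream both Th17 libraries (74.1 and 70.3) were above the other 4 (56.3 to 68.9), and at 15169 bp upstream both Th9 libraries (72.1 and 56.3) were below the other 4 (73.0 to 83.4), with no fitted difference past the threshold at either. At the promoter, a narrow region of 240 bp (chr11:82179868-82180107) was called only in Th9, at percentiles 7.42 and 7.65, so both peaks were among the weakest of their lists and 94.6% of Th9-only regions were as strong or stronger. A region 12074 bp upstream was called only in Th2, at 37.2 and 71.7, and one 5771 bp upstream only in Th9 replicate 3 (12.9). Ccl1 was the only member with regions of both a Th9-only and a Th2-only pattern.

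The sequence before the Ccl1 start is shown because the weak Th9-only peak overlaps it, on the minus strand of GRCm38.p6, from RefSeq, and it held no match to the 4 motifs.
Ccl1 promoter, chr11:82179813-82180062: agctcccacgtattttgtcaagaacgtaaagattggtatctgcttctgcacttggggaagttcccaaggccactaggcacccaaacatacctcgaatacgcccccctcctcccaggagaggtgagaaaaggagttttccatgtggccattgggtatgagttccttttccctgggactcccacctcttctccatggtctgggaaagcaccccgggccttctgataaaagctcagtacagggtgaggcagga

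The annotation also holds a longer record of Ccl1, 129034 bp, that includes a non-coding transcript outside the basic set. With this record 7 more regions entered, of which 2 had a peak in all 4 libraries of Th9 and Th2 and none in Th17. The stronger of them, 34529 bp upstream (chr11:82214341-82214908), lay at 71.7 and 81.5 in Th9 and 83.0 and 90.9 in Th2, and 11.0% of the 4732 regions of that pattern were as strong. The other, 25857 bp upstream, lay at 53.4 and 24.4 in Th9 and 59.4 and 71.9 in Th2. This record was added, and these regions named, after their values were seen. The promoter of Ccr8 was called throughout, with percentiles of 93.4 to 94.8 over the Th9 and Th2 lists and of 59.1 and 49.9 over the Th17 lists.

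CCL3, CCL4 and CCL5 are inflammatory chemokines made by activated and cytotoxic T cells, and CCL3 and CCL5 bind the receptor CCR1. Ccl3 (chr11:83647844-83649355, minus strand, ENSMUSG00000000982.5) and Ccl4 (chr11:83662584-83664683, plus strand, ENSMUSG00000018930.3) are close neighbours, so their windows overlap and share the region at the Ccl4 start. That region was weak, at percentiles 23.9 and 15.8 in Th9, 49.9 in Th2 replicate 1 and 7.72 in Th17 replicate 1, with no peak in replicate 3 of Th2 or Th17. The Ccl3 promoter had no peak. A region 8618 bp downstream of the Ccl3 start (chr11:83638980-83640737, intergenic, 1758 bp) was called in all libraries, at 78.8 and 87.4 (Th9), 72.0 and 76.6 (Th2), and 63.4 and 56.0 (Th17). Its subsets did not overlap, in the order Th9, Th2, Th17, but the largest difference, 0.69 ± 0.23 between Th9 and Th17, did not pass (limma adjusted p = 0.0873). This depended on the Th9 libraries and the scaling, since it passed without Th9 replicate 1 (1.07, adjusted p = 0.0258) and with median centring (0.73, adjusted p = 0.0240), but was 0.35 (adjusted p = 0.437) without Th9 replicate 3.

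Ccl5 (chr11:83525778-83530518, minus strand, ENSMUSG00000035042.2) had 3 regions. The region over its promoter and exon at the start (chr11:83530282-83531421) was called at 76.9 and 70.0 in Th9, at 60.4 and 1.27 in Th2 and at 10.9 in Th17 replicate 1, with no peak in Th17 replicate 3. Both Th9 libraries were above all others, and the Th2 libraries were far apart. The region 3785 bp upstream (chr11:83534303-83535308, intergenic, 1006 bp) was called in all libraries, at 84.8 and 66.7 (Th9), 73.5 and 59.1 (Th2), and 27.8 and 10.1 (Th17). Th9 and Th2 overlapped and both Th17 libraries lay below them. It was 0.82 ± 0.17 (SE, n = 2 and 2) higher on the log2 scale in Th9 than in Th17, or 1.77-fold, with a limma adjusted p of 0.00801. The call was lost without Th17 replicate 1 (0.85, adjusted p = 0.0956) and without Th17 replicate 3 (0.80, adjusted p = 0.136), where the difference itself stayed close to that of all libraries, and it was also lost on the percentile scale. Between Th2 and Th17 the difference of 0.49 ± 0.17 did not pass (adjusted p = 0.0971), except without Th9 replicate 1 (0.50, adjusted p = 0.0363). The strongest Ccl5 region, 19072 bp upstream, lay at 87.4 to 94.3 in all libraries, lowest in both Th17 libraries, with no difference past the threshold.

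The promoter of the receptor gene Ccr1 was called in 4 libraries. Of the markers of NK and CD8 T cells, which also make these ligands, Ncr1 and Cd8a had no promoter peak in any library, Klrb1c had 1 in Th2 replicate 1, and Cd8b1 had 1 in all 6 libraries at 51.0 to 76.2, with both Th17 values above the other 4. The part of such cells in the Ccl5 peaks was not tested.

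CCL20 is the ligand of CCR6 and XCL1 (lymphotactin) that of XCR1 on cross-presenting dendritic cells. Ccl20 (chr1:83116766-83119167, plus strand, ENSMUSG00000026166.14) had 6 regions, none called in all libraries, because Th2 replicate 3 had no peak in the whole window. A pair of regions downstream was called in the other 5 libraries. The one at 2919 bp lay at 84.6 and 49.0 in Th9, 52.9 in Th2 replicate 1 and 73.9 and 58.8 in Th17, and the one at 6334 bp at 82.0 and 58.2 in Th9, 71.5 in Th2 replicate 1 and 80.8 and 74.2 in Th17. Th9 and Th17 overlapped at both. A region 4774 bp upstream was called only in Th9 replicate 1, at 78.3. The start itself was called only in Th17 replicate 3, at percentile 10.2.

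Joined regions at the edges of the Ccl20 window were called in Th9 only or in Th17 only, each with a limit. The joined region 19900 bp upstream (chr1:83096249-83096866, intergenic, 618 bp) was called only in Th9, at 75.0 and 58.8, and 6.82% of Th9-only regions were as strong. It only just reaches into the window, which begins at chr1:83096766, and does so by its replicate 1 peak. The replicate 3 peak lay outside, so within the window itself this was a call of Th9 replicate 1 alone. The region 21222 bp downstream of the start (chr1:83137988-83138550) was called only in Th17, at 14.2 and 44.7. Its Th9-only counterpart is shown because it was the stronger of this pair, 300 bases on the plus strand of GRCm38.p6, with its AP-1 match in capitals. These bases lie outside the window.
Ccl20 upstream element, Th9 only, chr1:83096350-83096649: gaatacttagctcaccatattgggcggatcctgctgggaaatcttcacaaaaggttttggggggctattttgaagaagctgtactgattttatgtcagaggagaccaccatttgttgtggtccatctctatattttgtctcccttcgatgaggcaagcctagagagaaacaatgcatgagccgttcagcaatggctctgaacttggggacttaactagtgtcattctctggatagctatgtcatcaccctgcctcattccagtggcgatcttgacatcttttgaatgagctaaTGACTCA
The promoter of Ccr6 was called at 81.3 and 77.3 in Th9, at 7.53 in Th2 replicate 1 and at 48.9 in Th17 replicate 3.

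Xcl1 (chr1:164931644-164935527, minus strand, ENSMUSG00000026573.7) had no peak in its window in either Th9 library. A region 9960 bp upstream was called at 35.3 and 33.8 in Th2 and at 9.44 in Th17 replicate 3. The others were each called in 1 Th2 library, in the intron at 1387 bp (72.2), before the start (12.1) and 16049 bp upstream (34.0). Only the intron peak, at 2.91-fold, was above the lowest fold enrichment listed in Th9 replicate 1 (2.11). The rest were at 1.78-fold to 2.07-fold, so peaks of their strength could not be listed in Th9 replicate 1. The intron and start regions also overlap exons of the gene model Gm20743, so their signal cannot be given to Xcl1 alone. The receptor gene Xcr1 had no promoter peak.

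In the limma fit, log2 fold enrichment was compared over the 50492 regions called in all 6 libraries, of which 11 belonged to these genes. The fit called 3.20% of all regions between Th9 and Th2 and none of the 11, of which 1 had an unadjusted p under 0.05. It called 6.01% between Th9 and Th17, and 2 of the 11, near Ccl5 and Ccl17, both higher in Th9. It called 7.44% between Th2 and Th17, and 1 of the 11, the downstream Ccl17 region, higher in Th2. Of the 33 comparisons, 3 passed, 4 lay between 0.05 and 0.1 and the other 26 had adjusted p of 0.287 to 0.998. The median difference over the 11 was 0.01 for Th9 minus Th2, 0.14 for Th9 minus Th17 and 0.09 for Th2 minus Th17, beside 0.02, -0.001 and -0.03 over all regions. Median centring called 3 of the 11 between Th9 and Th17. In the percentile scale the fit called 0 of the 11 between Th9 and Th17, and without either Th17 library it also called 0.

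**Figure D3:**
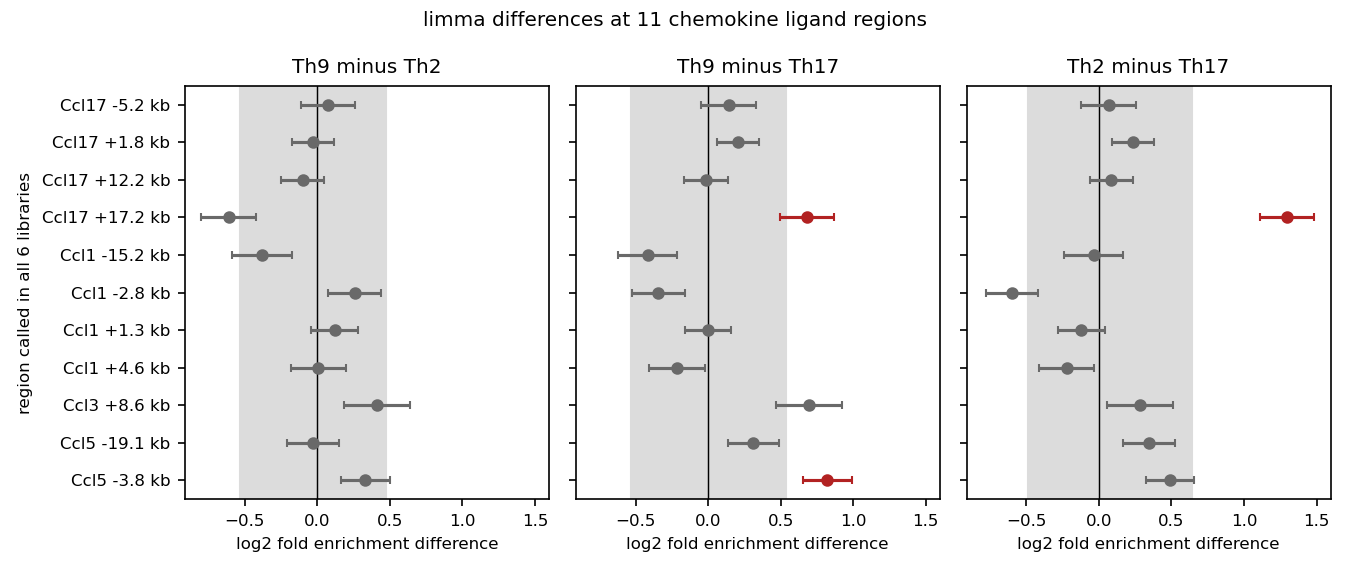
Fitted differences (points, with their standard error) in log2 fold enrichment at the 11 regions called in all 6 libraries, for each pair of subsets. Red marks an adjusted p under 0.05, and the grey band spans the middle 90% of all 50492 regions. The downstream Ccl17 region lies at 1.30 in Th2 minus Th17, outside the band, and most other points lie inside it.

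The number of base pairs covered by peaks in each window needs no call in every library, so it was compared for all 8 genes. Ccl17 had the widest coverage, 4265 and 5373 bp in Th9, 4982 and 4943 bp in Th2 and 3441 and 4551 bp in Th17, and 85.8% of protein-coding genes had a smaller share covered. Xcl1 and Ccl4 had the least. Coverage of the Ccl22 window was 749 and 2163 bp in Th9, 473 and 840 bp in Th2 and 200 and 0 bp in Th17. The median share covered was 3.49% over the 8 windows, beside 4.85% over 21938 protein-coding genes.

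Both Th9 libraries were above both Th2 libraries at 3 of 8 genes (Ccl1, Ccl4 and Ccl20), an order seen at 7.09% of all protein-coding genes, and below them at 1 (Xcl1), against 36.2%. Coverage was 2223 and 1141 bp in Th9 against 1090 and 0 bp in Th2 at Ccl20, a narrow margin, and 501 and 315 against 268 and 0 bp at Ccl4. With lists of equal length Th9 was above Th2 at 2 genes, and with peaks of at least 2.2-fold at 3. Between Th9 and Th17, coverage was higher in Th9 at 4 genes (Ccl1, Ccl3, Ccl5 and Ccl22), against 28.4%, and higher in Th17 at none, against 19.3%. Between Th2 and Th17 it was higher in Th2 at 5 genes (Ccl3, Ccl5, Ccl17, Ccl22 and Xcl1), against 49.9%, and higher in Th17 at 1 (Ccl20), against 7.09%. Both Th17 libraries thus lay lowest at Ccl3, Ccl5 and Ccl22, and Xcl1 had no coverage in Th9. The share of all genes with Th17 lowest was not computed. With peaks of at least 2.2-fold, Th2 was above Th17 at 3 genes and above Th9 at 0. These comparisons share libraries. Over the whole genome peaks covered 102 and 80.7 Mb in Th9, 118 and 108 Mb in Th2, and 96.0 and 91.5 Mb in Th17, and the part of these totals in the orders was not tested. Without Th9 replicate 1 the count of genes with Th9 above Th2 was 6, and without Th9 replicate 3 that with Th2 above Th9 was 3.

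**Figure D4:**
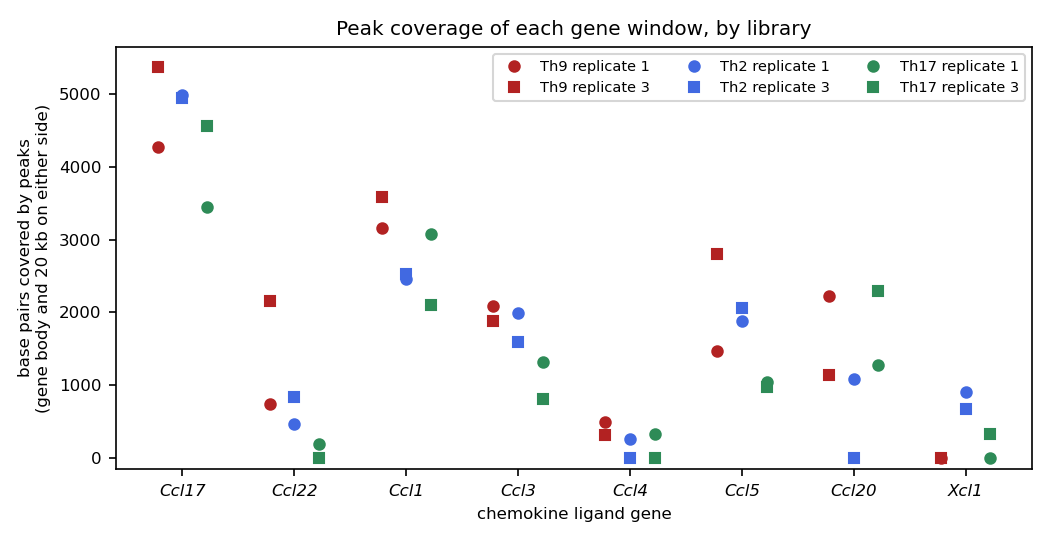
Base pairs covered by peaks in the gene body and 20 kb on either side of each of the 8 genes. Each point is a library, circles for replicate 1 and squares for replicate 3, coloured by subset. The Th17 points lie lowest at Ccl3, Ccl5 and Ccl22, the Th9 points lie at 0 for Xcl1, and replicates of a subset often differ by as much as the subsets do.

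Promoters of these genes were called in some of the libraries or in none. None of the 8 had a promoter peak in all 6 libraries, against 58.7% of protein-coding genes, and 3 (Ccl3, Ccl17 and Ccl22) had one in no library, against 28.0%. Without Th17 replicate 3, 1 gene (Ccl5) was called in all libraries left. The remaining 5 had promoter peaks in 1 to 5 libraries, of which the Ccl1 promoter was Th9-only. Of 30 other chemokine ligand genes, 14 were called in no library and 7 in all 6 (Ccl25, Ccl27a, Cxcl2, Cxcl3, Cxcl5, Cxcl10 and Cxcl12). Of those called by subset, Ccl19, a CCR7 ligand, was Th9-only (27.3 and 1.81), Cxcl13, a CXCR5 ligand, was Th2-only (56.6 and 25.8), and the membrane-bound ligand Cx3cl1 was called in the Th9 (75.6 and 33.9) and Th2 libraries (55.2 and 40.1) but not in Th17. Among 6 receptor genes of these ligands, Ccr4 and Ccr8 were called in all libraries and Ccr3 and Xcr1 in none.

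**Figure D5:**
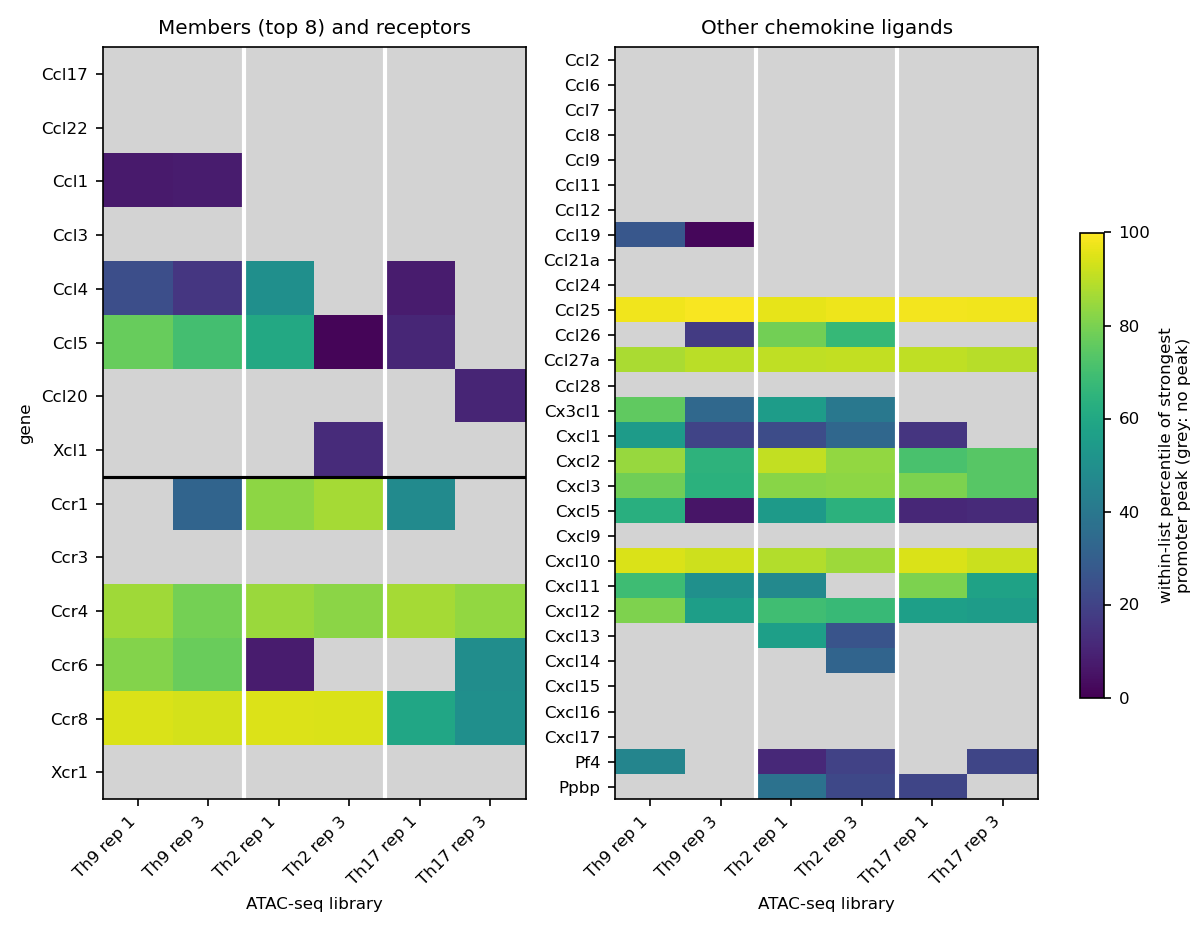
Strongest promoter peak (1000 bp before to 100 bp after any annotated start) of the 8 ligands and 6 receptors (left) and of 30 other chemokine ligands (right) in each library. Colour gives the within-list percentile and grey marks no peak. Grey fills most of the rows of the 8 ligands, while Ccr4 and Ccr8 are coloured in all 6 libraries.

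By the mean absolute difference in promoter percentile over the 6 libraries (no peak set to 0), the promoters most like that of Ccl5 among genes over 1 Mb away were Fjx1 (6.73) and Calhm1 (8.12). Those most like Ccl4 were Olfr780 (4.91) and Gm3252 (5.27), and those most like Ccl1 were Ldlrad1 (0.881) and Cd79b (0.903). The Ccl1, Ccl20 and Xcl1 promoters had 1 or 2 weak peaks each, so that many genes came close to them.

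In 300 bases around the midpoint of each joined region, which reach past the ends of narrow regions and differ from the stretches printed above, the AP-1 motif was found in 11 of the 34 regions (32.4%), against 11.7% of 236016 regions on the assembled chromosomes and 10.6% of those called in all 6 libraries. The NF-kB motif was found in 5 regions (14.7%), against 3.89% and 5.60%. The GATA motif was found in 5 (14.7%), against 12.3% and 10.1%, and the STAT motif in 2 (5.88%), against 8.64% and 8.35%. Of the promoter stretches, 250 bp before the start, available for 6 of the genes, that of Ccl20 held an NF-kB match and that of Ccl17 held a STAT and a GATA match. Of 32851 RefSeq promoters 3.90% held the NF-kB motif, 7.02% the STAT motif, 9.99% the GATA motif and 6.75% the AP-1 motif. These are matches of letters, and binding at them was not measured.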

How the data were processed

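ATAC-seq peak lists of 6 libraries were used. Per the study's methods and the submitters' processing notes, the authors trimmed reads with Trim Galore 0.4.3, aligned them to mm10 with Bowtie2, removed duplicates with Picard and called broad peaks for each library with MACS2 2.1.0, without a control. The deposited values used were the fold enrichment of each peak (a ratio to the genome-wide background) and its −log10 p and −log10 q. The deposited whole-number score was not used. Coordinates are mm10, no peak passed a chromosome end of GRCm38.p6, and genes were from GENCODE M21 basic transcripts.

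Overlapping or touching peaks were joined with Python 3.11.15, NumPy 2.4.6 and pandas 2.3.3, and a call needed 1 bp of overlap. Figures were drawn with matplotlib 3.10.9. Regions called in all 6 libraries, without the mitochondrial one, were fitted with limma 3.58.1 in R 4.3.3 on quantile-normalized log2 fold enrichment, with a moderated test (eBayes with trend), p-values adjusted by Benjamini-Hochberg over all regions and a threshold of 0.05. All 3 subsets shared the estimate of the spread. On simulated data, 200 of 20000 regions were changed by 1 on the log2 scale in the Th9 libraries. The comparison of Th9 and Th2 recovered 91 with 4 false calls. Smaller changes, such as most of those fitted near the 8 genes, were not simulated. The 8 genes, the lists and the tests were chosen with earlier results of these data known. Named regions were those in the windows called in both libraries of a subset, with weaker ones given briefly. A receptor and a marker from the lists are not reported here. Alternatives covered other normalizations, stricter peaks, other windows and each library left out. Sequences came from RefSeq, GRCm38.p6, with promoters for 6 of the 8 genes, and all 32851 promoter sequences matched the genome.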

Additional observations from a re-analysis of the deposited data

How the results depend on the processing

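Of the 162 alternative values computed for counts, 116 stayed within 1.5 times the count given. With peaks of −log10 q of at least 5, 5 of 18 regions were called in all 6 libraries, 1 in Th9 and Th2 only and 2 in Th9 only. At 4-fold enrichment these were 1 and, for Th9 only, 0 of 9, and at 2.2-fold Th9 and Th2 only was 1 of 23. Asking for at least 50% of a region left 3 called in all 6. Windows of 10 kb held 7 of 22 such regions, and windows of 50 kb 24 of 71, with 3 in Th9 and Th2 only, against 2 with the longer Ccl1 record. Promoters of 2000 bp on either side gave 1 gene called in all 6. Coverage at 2.2-fold was higher in Th2 than Th9 at 0 genes, in Th2 than Th17 at 3 and in Th17 than Th2 at 0, also 0 with lists of equal length. These coverage, Th9-only and longer-record settings were added after the data were seen.

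Median centring moved the median difference to 0.12 for Th9 minus Th2 and -0.10 for Th2 minus Th17 and changed the Th9 over Th2 split of calls from 514 and 1100 to 1055 and 969. The percentile scale called 0 regions between Th9 and Th2 (5147 at an unadjusted p under 0.05, 1 of the 11 near the genes), 132 between Th9 and Th17 (122 higher in Th9, beside 1573 of 3036; 0 of the 11) and 383 between Th2 and Th17 (368 higher in Th2, beside 2547 of 3757). The length-weighted mean fold called 2 of the 11 between Th2 and Th17.

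Deviations of same-numbered libraries were weakly correlated between Th9 and Th2 (0.21) and hardly between Th9 and Th17 (0.01) or Th2 and Th17 (0.00). The labels do not say whether equal replicate numbers mean a shared origin. With a replicate block, 2215, 3503 and 4307 regions were called for Th9 and Th2, Th9 and Th17, and Th2 and Th17, and 0, 2 and 2 of the 11, the added one being the Ccl1 region 2792 bp upstream (adjusted p = 0.0434).

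Leaving out each library in turn gave 460 to 1009, 813 to 3640 and 1299 to 4346 calls, and 0 to 0, 0 to 2 and 1 to 2 of the 11. Regions in Th9 and Th2 only were 0 to 1 and promoters in all libraries 0 to 1. Coverage counts were 3 to 6 (Th9 over Th2), 1 to 3 (Th2 over Th9), 0 to 2 (Th17 over Th9) and 1 to 3 (Th17 over Th2). The causes of these changes were not tested. The Th2 over Th17 difference at the downstream Ccl17 region passed in all 10 alternatives (adjusted p 2.96e-04 to 0.0343). Without read counts, depth sets an unknown limit on which weak peaks were called.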
